A study of Rattus norvegicus with 47 samples.

Results

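The comparison set testes taken 24 h after methoxyacetic acid (MAA) against testes taken 24 h after saline. It used the 12 of the series' 47 arrays that carry those labels, 6 MAA rats (animals 39, 40, 43, 44, 47 and 48) and 6 saline rats (animals 37, 38, 41, 42, 45 and 46), with 1 array per animal. All animals were Sprague-Dawley rats of 90 days. The MAA rats had received 650 mg/kg of MAA into the peritoneal cavity and the saline rats had received saline, and total RNA was extracted from part of the right testis after CO2 asphyxiation. The series also holds rats of both treatments at 4, 8 and 12 h. Each testis RNA shared its Agilent oligonucleotide array with the same purchased rat RNA pool, labelled in the second colour and called the reference RNA below.

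MAA is the acid to which the body oxidises the solvent ethylene glycol monomethyl ether, and it is known as a testis poison whose first target is the spermatocyte, the germ cell in meiosis. Spermatocytes develop between Sertoli cells, which nourish germ cells and engulf those that die, while Leydig cells outside the tubules make testosterone. MAA is also known to inhibit histone deacetylases. In whole testis RNA, fewer cells of a type and less RNA per cell cannot be told apart.

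The level of a probe is given as M, the log2 ratio of testis over reference RNA after intensity-dependent (loess) normalization within each array. A change is the difference in M, MAA minus saline, estimated by limma with the hybridisation date as a term, so a change of 1 is a doubling of the ratio. The sample labels name Cy5 as the testis dye, whereas the array files carry testis RNA in the channel headed Cy3. If the dyes were as labelled, all changes given here would have the opposite sign. With each array's median M set to 0, the median of 13 pachytene spermatocyte markers lay between 0.74 and 1.19 on the 12 arrays and that of 23 elongating spermatid markers between 0.67 and 1.03. The medians of 15 genes typical of organs such as brain, heart and liver, picked once the files were open, lay between -1.38 and -0.28. Arrays had a median testis signal of 683 to 1061.5 units, and 43.5% to 75.05% of their probes stood above background. On 2 hybridisation dates both groups were present, with 2 animals of each (MAA 40 and 43 with saline 38 and 41, and MAA 47 and 48 with saline 45 and 46). The other 4 animals were hybridised on dates shared only with other groups, so their dates rest on those groups. The labels make each array a separate animal, and the number of arrays limits the precision, with a median SE of 0.17 for a change.

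At 24 h the largest rises in MAA testes were in St3gal4, S100a10 and Star, and the largest falls in Gmcl1, Pou5f2, Mllt10 and Cks2. The antioxidant, lysosomal, ribosomal, and actin and annexin gene lists held 8 to 10 rises each and no fall. Of these lists, the lysosomal one and the actin and annexin one share the rises of Anxa2 and Anxa5. These counts and directions did not hold under every scaling. The ribosomal list median was below 0 under 2 of the 5 other scalings, and the actin and annexin median under 1. After median centring the antioxidant, lysosomal and ribosomal lists held 0 rises, and the actin and annexin list 1. With limma, 612 of 20500 probes passed at an adjusted p under 0.05 (2.99%), 461 of them higher in MAA testes (2.25%) and 151 lower (0.737%). In a fit on the 11479 probes above background on at least 3 arrays of each group, 8.62% passed. The 612 called probes stood for 433 named genes, 335 higher and 98 lower, and 169 called probes had no single gene symbol. Most changes were small, with a median of 0.51 among the probes called higher and -0.60 among those called lower, and 14 probes reached a 2-fold change, 4 higher and 10 lower. The split between directions depends on the scaling, with 461 higher and 151 lower after loess, 165 and 213 with the authors' own log2 ratio, 104 and 200 with the testis channel alone and 20 and 173 after median centring. All 151 falls kept their sign in these other scalings, as did all 461 rises with the authors' ratio, 438 with the testis channel alone and 426 after median centring. The median change of all probes was 0.021 after loess, -0.0070 with the authors' ratio, -0.030 with the testis channel alone and -0.0082 after median centring.

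**Figure D1:**
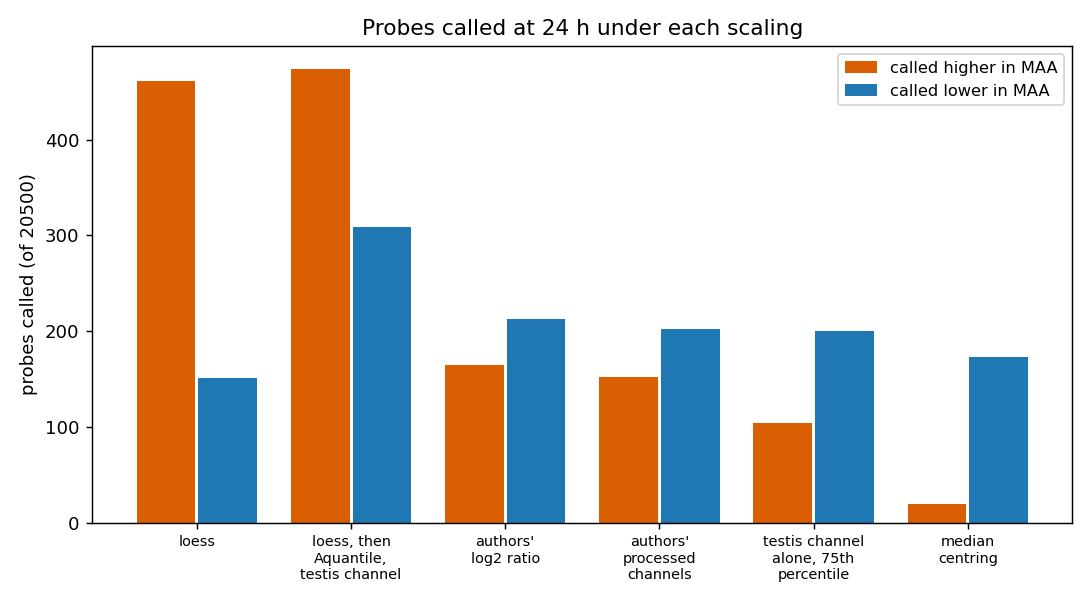
Bars give the number of probes called higher (orange) and lower (blue) in MAA than in saline testes at 24 h, of 20500 tested, for 6 ways of scaling the same 12 arrays within the 47-array fit. Rises outnumber falls after loess (461 and 151) and falls outnumber rises after median centring (20 and 173).

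The largest rise was that of St3gal4, which encodes an enzyme that adds sialic acid to galactose. Its M was 0.10, 0.86 and 1.35 (lowest, median, highest) in the 6 MAA testes, against -0.74, -0.40 and -0.24 in the 6 saline testes. The groups did not overlap, and the change of 1.22 ± 0.17 SE was a 2.33-fold rise (adjusted p = 0.000116). It passed under all 5 other scalings and in each of the 12 fits that left out 1 array of 24 h. S100a10, the partner protein of annexin A2, was low in testis compared with the reference RNA, at -2.14, -1.84 and -1.62 in MAA testes, against -3.22, -3.02 and -2.80 in saline testes. Every MAA testis was above every saline testis, and the change was 1.13 ± 0.18 SE (2.19-fold, adjusted p = 0.000257), which also passed under all 5 scalings.

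Star, which carries cholesterol into the mitochondrion for steroid synthesis, stood at 1.26, 1.62 and 2.00 in MAA testes, against 0.10, 0.73 and 1.15 in saline testes. The groups did not overlap, although only 4 of the 6 saline spots were above background, against 6 of 6 MAA spots. The change was 1.08 ± 0.24 SE (2.12-fold, adjusted p = 0.00868) and passed under 4 of the 5 other scalings, with an adjusted p of 0.0592 for the testis channel alone. Cd63, a membrane protein of late endosomes and lysosomes, measured -1.49, -0.70 and -0.52 in MAA testes, against -1.98, -1.79 and -1.68 in saline testes. The lowest of the MAA values, above every saline testis, was that of animal 44, and the change of 0.97 ± 0.14 SE passed at an adjusted p of 0.000167. Of the 5 other scalings, Cd63, Gstp1, Hmox1, Tuba1a and Ctsl missed the threshold after median centring, at adjusted p = 0.0925 to 0.281.

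Gstp1, the pi-class glutathione S-transferase, had -2.04, -1.30 and -1.02 in MAA testes, against -2.73, -2.42 and -2.38 in saline testes. Its groups did not overlap, and the rise was 1.93-fold (0.95 ± 0.16 SE, adjusted p = 0.00066). The heme-degrading enzyme gene Hmox1 gave 0.30, 0.87 and 1.09 in MAA testes, against -0.18, -0.073 and 0.078 in saline testes, with no overlap. Its change was 0.90 ± 0.13 SE (adjusted p = 0.000167), while a second Hmox1 probe changed by 0.28 ± 0.14 SE and did not pass (adjusted p = 0.361).

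For Tuba1a, an alpha-tubulin, the values were -2.69, -1.69 and -1.36 in MAA testes, against -3.11, -2.84 and -2.54 in saline testes. Animal 44 lay among the saline testes and the other 5 MAA testes lay above all of them, for a change of 0.91 ± 0.15 SE (adjusted p = 0.000492). Ctsl, a lysosomal protease that Sertoli cells also secrete, had the same layout at -1.75, -0.91 and -0.74 in MAA testes, against -2.28, -1.89 and -1.65 in saline testes. Its change of 0.90 ± 0.17 SE passed at an adjusted p of 0.00195. The other 4 of the 12 largest rises were C7h12orf75 (0.99), the transcriptional corepressor gene Ripply3 (0.95), Cutal (0.90) and the zinc finger gene Zbtb8a (0.89), all with no overlap between the groups. Of these, C7h12orf75 passed under all 5 other scalings, Cutal and Zbtb8a under 3 and Ripply3 under 2. In the testis channel taken by itself Ripply3 changed by 0.23 (adjusted p = 0.829), Cutal by 0.42 (adjusted p = 0.239) and Zbtb8a by 0.43 (adjusted p = 0.343). A second C7h12orf75 probe also passed, at 0.79.

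**Figure D2:**
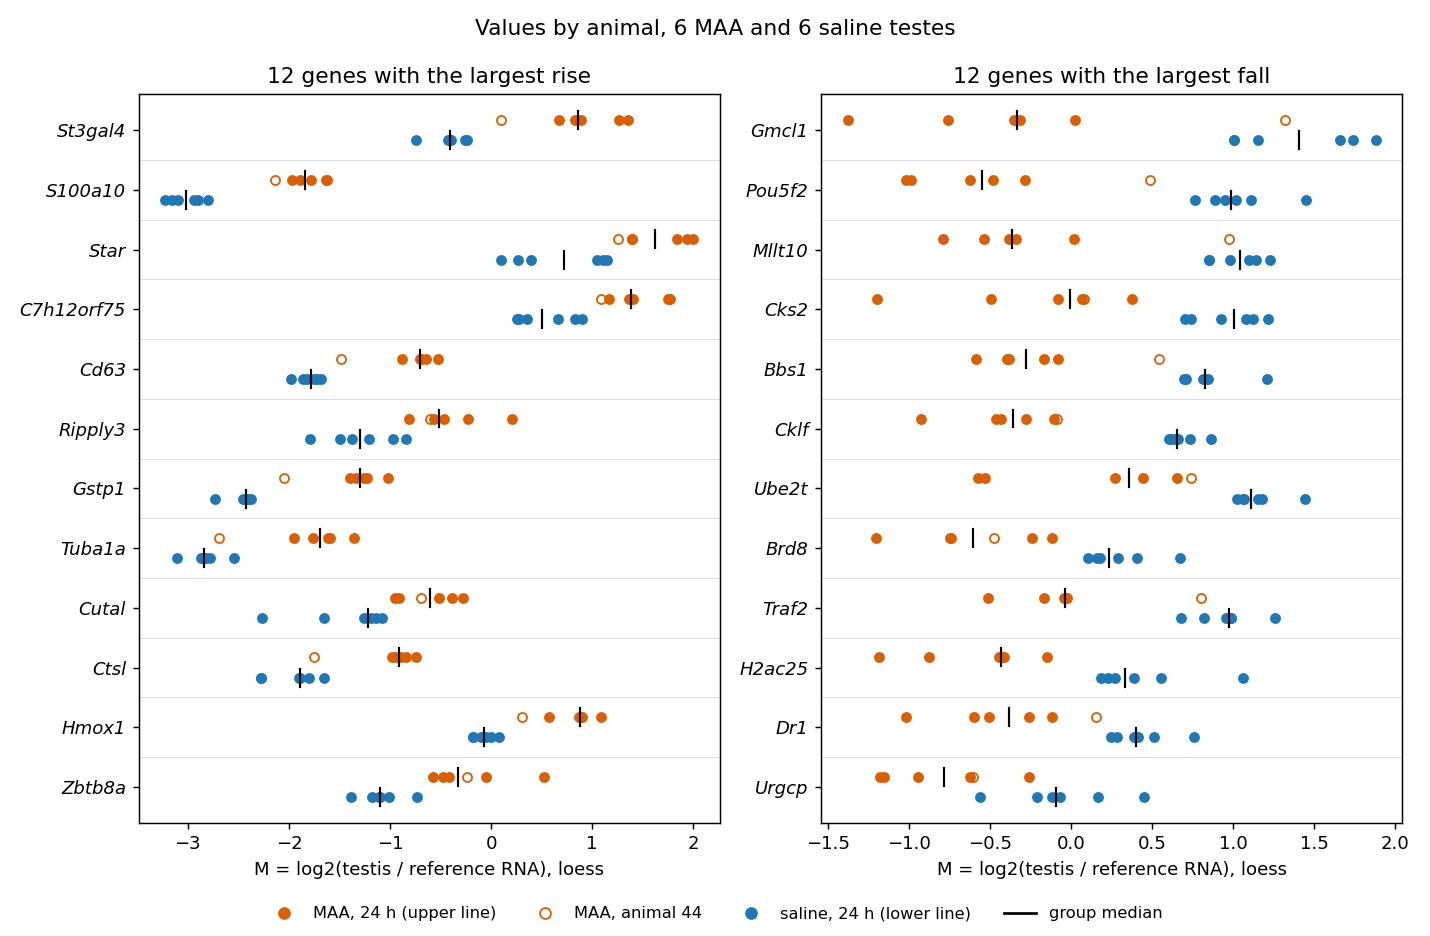
Each point is 1 testis, with M (log2 testis over reference RNA after loess) on the horizontal axis and the 12 genes with the largest rise (left) or fall (right) at 24 h down the page. For each gene the 6 MAA testes (orange, animal 44 as an open circle) are drawn on the upper line and the 6 saline testes (blue) on the lower line, and black ticks are group medians. Animal 44 is the MAA testis nearest to the saline testes for St3gal4, Cd63, Gstp1, Gmcl1, Pou5f2 and Mllt10.

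The 2 largest falls were in members of the pachytene spermatocyte list, which was written with earlier results of these data known. Gmcl1, the mammalian germ cell-less gene, which in mouse is needed for normal sperm, measured -1.38, -0.33 and 1.32 in MAA testes, against 1.01, 1.41 and 1.88 in saline testes. Animal 44 lay within the saline range and the other 5 MAA testes lay below it. The fall was 2.93-fold (-1.55 ± 0.27 SE, adjusted p = 0.000831), and the other 2 Gmcl1 probes changed by -0.62 (adjusted p = 0.00197) and -0.50 (adjusted p = 0.223). Pou5f2, a POU-domain transcription factor gene of the testis, had -1.02, -0.55 and 0.49 in MAA testes, against 0.76, 0.99 and 1.45 in saline testes, with no overlap. Only 2 of its 6 MAA spots were above background, against 6 of 6 saline spots. The change of -1.46 ± 0.19 SE passed at an adjusted p of 3.9e-05, under all 5 other scalings and without any 1 of the 12 arrays.

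Mllt10, which encodes a cofactor of the histone H3 methyltransferase Dot1l, stood at -0.79, -0.36 and 0.98 in MAA testes, against 0.85, 1.04 and 1.23 in saline testes. All MAA testes but animal 44 lay below the saline range, for a change of -1.17 ± 0.17 SE (adjusted p = 0.000167). A second Mllt10 probe, above background on 0 MAA and 1 saline array, gave 0.12. Bbs1, a subunit of the BBSome, which carries cargo in cilia, gave -0.58, -0.27 and 0.54 in MAA testes, against 0.70, 0.83 and 1.21 in saline testes. There was no overlap, and the change was -1.02 ± 0.14 SE (adjusted p = 0.000105). Cklf, a chemokine-like factor gene, had -0.93, -0.35 and -0.085 in MAA testes, against 0.61, 0.65 and 0.86 in saline testes, again without overlap, and changed by -1.02 ± 0.17 SE (adjusted p = 0.00068).

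Cks2, a small subunit of cyclin-dependent kinases that mouse spermatocytes need to leave the first meiotic metaphase, measured -1.19, -0.0047 and 0.38 in MAA testes, against 0.70, 1.01 and 1.22 in saline testes. The groups did not overlap, and the fall was 2.04-fold (-1.03 ± 0.20 SE, adjusted p = 0.00333). The second of this list to fall, Cdc20, an activator of the anaphase-promoting complex, had -0.16, -0.11 and -0.035 in MAA testes, against 0.19, 0.34 and 0.71 in saline testes, also without overlap. The Cdc20 change of -0.46 ± 0.13 SE just passed (adjusted p = 0.0453), and it passed in only 1 of the 12 fits that left out an array (adjusted p = 0.0718 without animal 44 and 0.139 without saline animal 38, the highest). The promoters of both genes are shown because both transcripts fell and both windows hold motifs known from promoters of cell cycle genes, and genes and motifs were chosen after the values were seen. They run from 250 bases before to 50 bases after the RefSeq gene start in build GRCr8, at chr17:13727470-13727769 for Cks2 and chr5:137255750-137256049 for Cdc20, both from the minus strand. Capitals mark CCAAT boxes (CCAAT, or ATTGG for the other strand) and the cell cycle genes homology region (TTTGAA, or TTCAAA for the other strand), with both strands searched and no overlap between the 2 motifs.
Cks2: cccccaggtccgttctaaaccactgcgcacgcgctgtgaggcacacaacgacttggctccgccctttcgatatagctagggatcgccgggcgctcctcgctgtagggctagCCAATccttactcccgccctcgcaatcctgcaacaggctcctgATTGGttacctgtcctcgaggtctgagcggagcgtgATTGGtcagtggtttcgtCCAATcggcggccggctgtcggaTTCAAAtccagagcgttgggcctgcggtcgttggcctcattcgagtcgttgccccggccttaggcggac
Cdc20: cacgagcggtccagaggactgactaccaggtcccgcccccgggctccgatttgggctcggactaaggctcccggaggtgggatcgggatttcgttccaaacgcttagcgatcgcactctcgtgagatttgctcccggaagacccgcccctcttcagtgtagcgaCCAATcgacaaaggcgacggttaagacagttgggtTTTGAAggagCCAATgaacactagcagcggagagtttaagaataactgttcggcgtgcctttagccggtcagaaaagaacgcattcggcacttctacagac
The Cks2 window held 4 CCAAT and 1 TTTGAA match, and the Cdc20 window 2 and 1. Of all 33469 RefSeq promoter windows of this length, 37.5% held CCAAT and 18.3% held TTTGAA on either strand, and a match is a description of letters only.

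The 6 falls that complete the 12 largest were also called. Ube2t, a ubiquitin-conjugating enzyme of the Fanconi pathway, changed by -0.93, the tumour necrosis factor receptor adaptor Traf2 by -0.93, the histone gene H2ac25 by -0.92, the general transcription repressor Dr1 by -0.86 and Urgcp by -0.84. Of the MAA spots, 4 of 6 were above background for Traf2, 2 for H2ac25 and 1 for Urgcp. Animal 44 lay within the saline range for Traf2 and animal 39 for Urgcp, and the other 3 did not overlap. Brd8, a bromodomain protein gene of the NuA4 acetyltransferase complex, was above background on 0 of 6 MAA arrays and 5 of 6 saline arrays. Its level was therefore at least 1.40-fold lower in MAA testes, from mean log2 signals of 9.04 in MAA and 9.97 in saline testes and a background level of 9.48. That bound was not tested. The change of Brd8 in M was -0.93 ± 0.21 SE (adjusted p = 0.011). It passed in 11 of the 12 fits that left out 1 array, and the adjusted p was 0.12 after median centring. Among called probes without a gene symbol, probes 12393 and 11051 fell by 1.16 and 1.14, and probes 8813 and 9908 rose by 1.01 and 0.93.

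Animal 44 of the MAA group responded less than the other 5. Each animal was placed on the probes called in the fit without it, as its median deviation from the saline level of that fit, with the date removed. Over probes called higher, animals 39, 40, 43, 47 and 48 lay at 0.50, 0.63, 0.43, 0.51 and 0.49, and animal 44 at 0.20. Over probes called lower, the same 5 lay at -0.69, -0.72, -0.33, -0.56 and -0.53, and animal 44 at -0.15. Saline animals, placed in the same way, lay between 0.013 and 0.20 over the rises and between -0.22 and 0.093 over the falls, so animal 44 lay within the saline range over the falls and equal, at 2 decimals, to its highest animal over the rises. Animal 44 was the only 24 h animal on its hybridisation date, as were MAA animal 39 and saline animals 37 and 42.

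**Figure D3:**
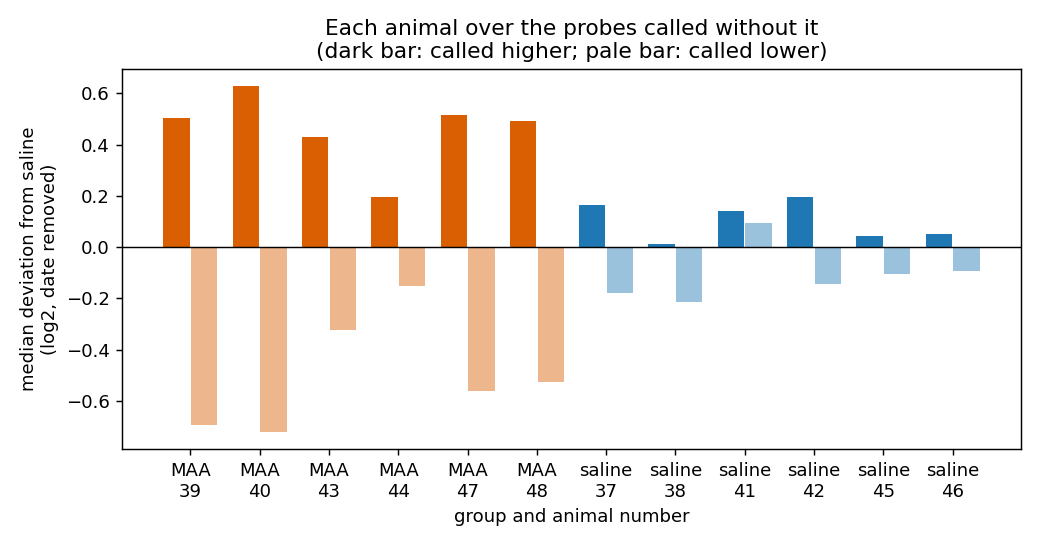
Bars give, for each of the 6 MAA (orange) and 6 saline (blue) testes of 24 h, the median deviation from the saline level (log2, date removed) over the probes called higher (dark) and lower (pale) in the fit without that animal. MAA animal 44 stands at 0.20 and -0.15, near the saline animals, while the other 5 MAA animals stand at 0.43 or more and -0.33 or less.

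Without animal 44, 766 probes passed (3.74%), 562 higher (2.74%) and 204 lower (0.995%). Of the 461 rises and 151 falls called with it, 424 and 140 passed again, and all kept their sign. The largest changes grew, to -1.83 for Gmcl1, -1.61 for Pou5f2, -1.29 for Mllt10, 1.39 for St3gal4, 1.21 for Star and 1.10 for Cd63. S100a10 (1.12), Hmox1 (0.90) and Cklf (-1.07) moved by less than 0.1.

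Germ cell lists gave 0 to 2 calls each, from 0% to 15.4% of their members, against 2.99% of all probes. Of 13 pachytene spermatocyte markers, 0 rose and 2 fell (Gmcl1 and Pou5f2), 15.4% of the list against 0.737% of all probes called lower. In the fit on the 11479 probes above background, 234 were called lower. The lists were written with earlier results of these data known, so these shares are a description. The pachytene list median was -0.067, against 0.021 over all probes. Classical spermatocyte genes such as Ldhc (0.14), the testis lactate dehydrogenase, Ddx4 (0.11), a germ cell RNA helicase, and Hspa2 (-0.067), a meiotic chaperone, did not pass. Of 31 genes of meiotic division and the cell cycle, 0 rose and 2 fell (Cks2 and Cdc20, 6.45% of the list), with a median of -0.01. Both medians were below 0 under all 5 other scalings, where 2 or 3 pachytene and 3 or 4 division members fell and 0 rose.

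Of 13 genes of the meiotic chromosome axis and of recombination, 1 rose and 1 fell, 15.4% of the list in either direction. The list median of 0.059 was below 0 under the other 5 scalings. In those scalings 0 of the list rose and 2 or 3 fell, and without animal 44 the counts were 2 and 2. Mlh3, which resolves crossovers, had -1.03, -0.42 and 0.17 in MAA testes, against -0.15, 0.35 and 0.76 in saline testes, and all but 1 MAA testis lay below the saline range. Its change was -0.68 ± 0.17 SE (adjusted p = 0.0168), with 4 of 6 MAA spots above background, and the adjusted p was 0.0614 for the testis channel alone. Smc1b, the meiotic cohesin subunit, changed by 0.45 ± 0.13 SE (adjusted p = 0.0451) with overlapping groups, and it passed under none of the 5 other scalings.

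Spermatid markers showed few calls. Of 19 round spermatid and acrosome markers 0 passed in either direction, with a median of 0.057 that was below 0 under the 5 other scalings, and the smallest p was that of Spaca3, a sperm acrosome protein, at 0.34 ± 0.10 SE (adjusted p = 0.0663). Of 23 markers of elongating spermatids and sperm tails, 1 rose (4.35%) and 0 fell, with a median of 0.22 that was -0.07 after median centring. Cabyr, a fibrous sheath protein, changed by 0.47 ± 0.13 SE (adjusted p = 0.0394), and with saturated spots set to missing it did not pass (adjusted p = 0.0580). Of these 23 probes, 10 were saturated on at least 1 of the 12 arrays. Of 9 spermatogonial markers, 1 rose (Id4, a transcription regulator of undifferentiated spermatogonia, 0.75 ± 0.17 SE, adjusted p = 0.0117, and passing under 1 of the 5 other scalings) and 0 fell, with a median of 0.16 that was above 0 under all scalings, and 3 of the 9 were below background on all 12 arrays.

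Sertoli cell markers had a median change of 0.18, which stayed above 0 under all 5 other scalings. Of the 29 markers 3 rose and 0 fell, 10.3% of the list against 2.25% of all probes called higher. Besides Ctsl these were Cst9l, a cystatin, at 1.10, 1.85 and 1.92 in MAA testes, against 0.98, 1.12 and 1.31 in saline testes, and Aard, at 1.57, 2.34 and 2.56 in MAA testes, against 1.40, 1.62 and 1.80 in saline testes. In both, animal 44 was the only MAA testis within the saline range. Their changes were 0.63 ± 0.12 SE (adjusted p = 0.00297) and 0.60 ± 0.13 SE (adjusted p = 0.00943). Under the other scalings 0 to 3 of the 29 rose. Markers that did not pass include the inhibin gene Inha (0.45), the androgen-binding globulin Shbg (0.025) and the hormone receptor Fshr (0.075).

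Genes of Leydig cells and steroid synthesis rose in 3 of 18 cases and fell in 0. This was 16.7% of the list, against 2.25% of all probes called higher. The list median of 0.16 was -0.017 after median centring. Of the list, 1 rose after median centring and 0 in the testis channel by itself. Beside Star the rises were Nr4a1, an orphan nuclear receptor that is also an immediate-early gene, and Hsd11b1, which interconverts cortisone-type and cortisol-type steroids. Nr4a1 had -0.49, -0.18 and 0.26 in MAA testes, against -1.24, -1.01 and -0.55 in saline testes, with no overlap and a change of 0.65 ± 0.15 SE (adjusted p = 0.0117). Hsd11b1 changed by 0.43 ± 0.12 SE (adjusted p = 0.0454) and passed under 1 of the 5 other scalings. The steroid enzyme genes Cyp11a1 (0.26), Cyp17a1 (-0.11) and Hsd3b2 (-0.27) did not pass.

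Other cell types of the organ gave 0 or 1 call per list, from 0% to 14.3% of members, against 2.99% of all probes. Of 13 peritubular myoid markers 1 rose, Myl9, a smooth muscle myosin light chain (0.58 ± 0.11 SE, adjusted p = 0.00185), and 0 fell. Of 29 macrophage and leukocyte markers and 14 endothelial markers, 0 passed, with smallest p-values for the class II gene RT1-Da (0.37 ± 0.13 SE, adjusted p = 0.112) and for Eng, an endothelial receptor (0.31 ± 0.18 SE, adjusted p = 0.463). The mean M of the macrophage and leukocyte markers ranged from -0.97 to -0.70 over MAA testes, against -1.06 to -0.79 over saline testes. Of 7 blood cell markers 1 rose, Alas2, a heme synthesis enzyme of red cells (0.50). List medians were 0.055 for peritubular, 0.077 for macrophage, 0.089 for endothelial and 0.037 for blood cell markers, and they were below 0 under 3, 3, 2 and 0 of the 5 other scalings.

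Of 6 epididymal markers 2 rose, the receptor tyrosine kinase gene Ros1 (0.76 ± 0.20 SE, adjusted p = 0.0268) and the cystatin gene Cst8 (0.46 ± 0.13 SE, adjusted p = 0.0477), and Cst8 did not pass without animal 44 (adjusted p = 0.0548). The 2 rises were 33.3% of the list, against 2.25% of all probes called higher. The list median of 0.05 was below 0 under 1 of the 5 other scalings. The defining epididymal gene Lcn5 changed by -0.0096 and was above background on 2 arrays of each group, and Cst11 was above background on none. The mean M of the 6 markers lay between -0.41 and 0.10 in MAA testes and between -0.68 and -0.23 in saline testes.

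**Figure D4:**
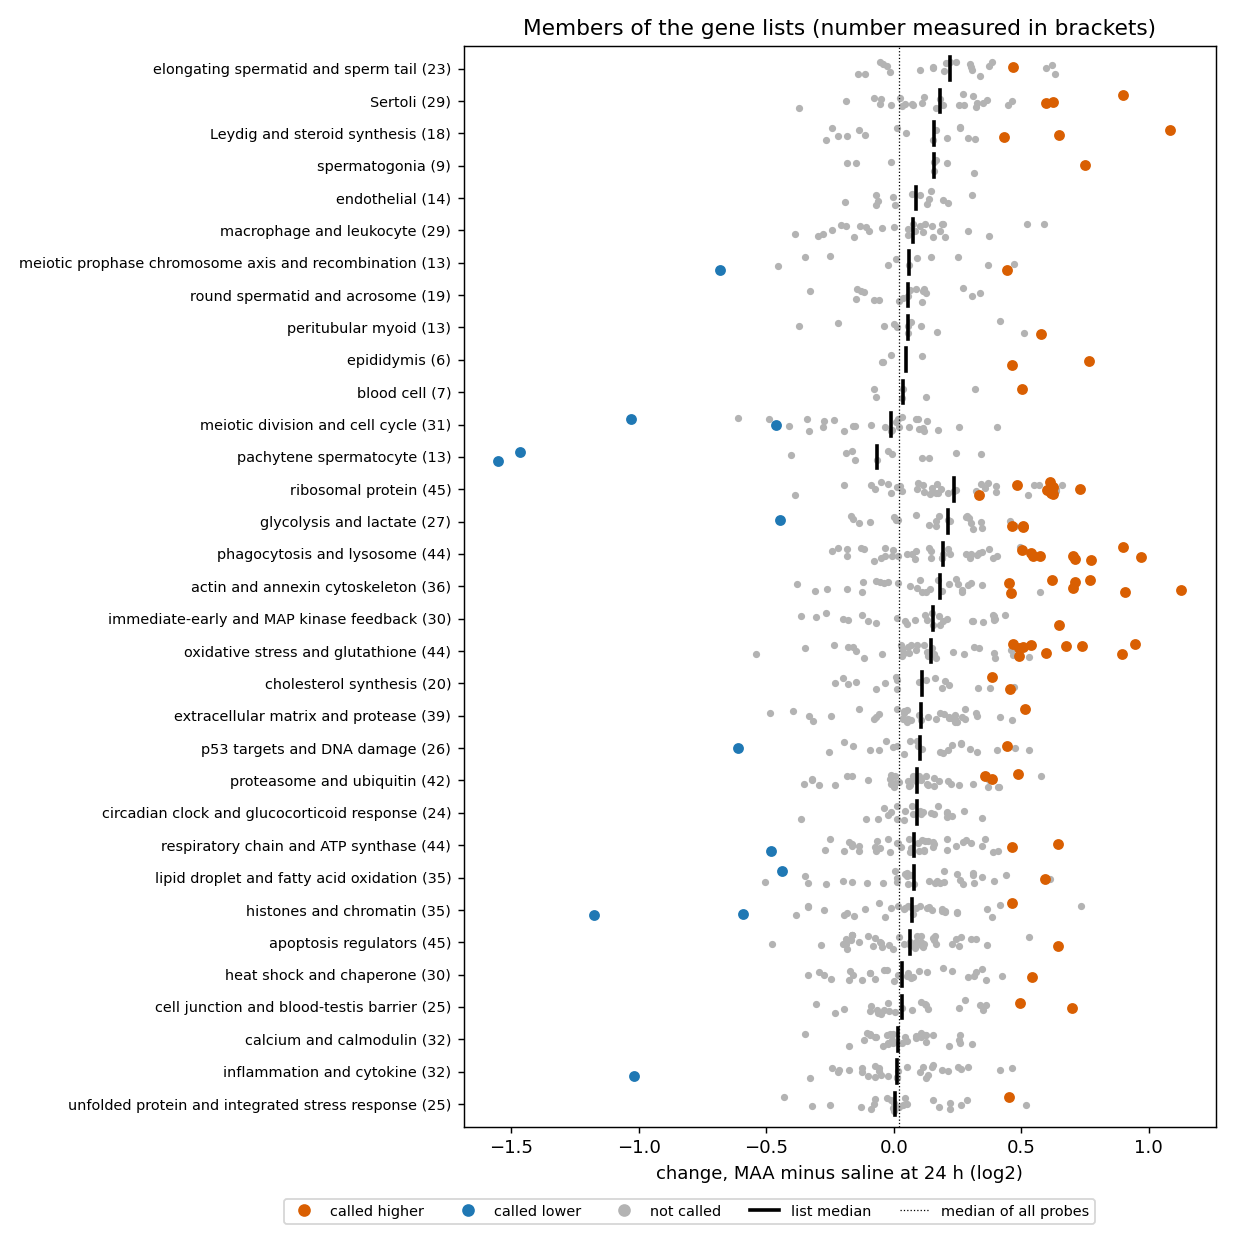
Each point is 1 gene, with its change at 24 h (MAA minus saline, log2) on the horizontal axis and 33 gene lists down the page (cell type markers above, pathways below). Orange and blue points passed the test as higher and lower, grey points did not, and black ticks are list medians beside the dotted median of all probes (0.021). The ribosomal, phagocytosis, actin and antioxidant lists hold 8 to 10 orange points each.

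Antioxidant and glutathione genes held 10 rises and 0 falls among 44 members, 22.7% of the list against 2.25% of all probes called higher, with a median change of 0.15. In the fit on the 11479 probes above background, 756 were called higher, and 8.62% passed in either direction. The lists take the brightest probe of each gene, whereas all probes include dim ones. The part of detection in this and the other list shares was not tested. Without animal 44 the counts of the antioxidant list were 11 and 0. Prdx1 is not among the 10, since its brighter probe missed the threshold (0.53, adjusted p = 0.0602), while another of its probes passed (0.61, adjusted p = 0.00975). After Gstp1 and Hmox1, the members with the smallest p were the peroxidase genes Prdx4 and Prdx2. Prdx4, a peroxidase of the endoplasmic reticulum, had 1.33, 1.59 and 1.74 in MAA testes, against 0.69, 0.99 and 1.23 in saline testes. Prdx2, its cytosolic relative, had -0.92, -0.48 and -0.33 in MAA testes, against -1.30, -1.19 and -1.05 in saline testes. Neither overlapped, and the changes were 0.54 ± 0.10 SE (adjusted p = 0.00281) and 0.60 ± 0.12 SE (adjusted p = 0.00322), with a second Prdx2 probe also called (0.53).

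The other 6 antioxidant rises were the iron storage chains Fth1 (0.74) and Ftl1 (0.49), the membrane glutathione transferase Mgst1 (0.68), the superoxide dismutase Sod1 (0.51), the glutathione peroxidase Gpx1 (0.49) and the glutathione transferase Gsta4 (0.47). Among those that did not pass were Nqo1 (0.46), a quinone reductase, Gclm (0.029) and Srxn1 (0.033), both known targets of the antioxidant regulator Nrf2, and the metallothioneins Mt1 (-0.15) and Mt2A (0.041). The list median stayed above 0 under the 5 other scalings, between 0.0046 after median centring and 0.21 with Aquantile, a scaling of the loess values between arrays. The count of rises was 0 after median centring, 2 with the testis channel alone, 5 with the authors' ratio and 8 with Aquantile, and 0 members fell in these. With saturated spots set to missing, 8 of 43 rose.

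The Gstp1 promoter is shown because Gstp1 was the largest rise of the list and its window holds an antioxidant response element, searched on both strands as TGACNNNGC. The window is from RefSeq build GRCr8, chr1:210769656-210769955 on the minus strand, 250 bases before to 50 after the start that the RefSeq promoter table uses, with the match in capitals. That start lies 537 bases inside the full RefSeq span of the gene.
Gstp1: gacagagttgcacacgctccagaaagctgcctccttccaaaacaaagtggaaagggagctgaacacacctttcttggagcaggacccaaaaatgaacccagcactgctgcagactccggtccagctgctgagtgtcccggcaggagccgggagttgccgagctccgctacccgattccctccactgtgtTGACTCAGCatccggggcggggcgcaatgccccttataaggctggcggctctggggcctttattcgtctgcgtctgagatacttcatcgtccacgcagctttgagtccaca
The match lay 61 bases before that start, and its first 7 letters are also an AP-1 motif (TGACTCA). Of the 10 antioxidant genes called higher, all but Hmox1, Fth1 and Ftl1 were matched to a window by symbol. Of these 7, Gstp1 and Prdx4 held the element, as did 12.1% of all 33469 windows. For Prdx4 the start used lies 2359 bases inside the gene's full RefSeq span, and the match lies 19 bases after that start.

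Genes of phagocytosis and the lysosome held 9 rises and 0 falls among 44 members (20.5%, against 2.25% of all probes called higher). The median change of these genes, 0.19, stayed above 0 under the 5 other scalings. Sertoli cells and macrophages both use these genes to take up and degrade dead cells. After Cd63 and Ctsl came Lgals3, a galactose-binding lectin, at -1.20, -0.38 and -0.33 in MAA testes, against -1.40, -1.32 and -1.17 in saline testes. Animal 44 alone lay in the saline range, and the change was 0.78 ± 0.14 SE (adjusted p = 0.0012). Anxa5, which binds the phosphatidylserine exposed on dying cells, had -1.65, -1.13 and -0.76 in MAA testes, against -1.92, -1.87 and -1.77 in saline testes, with no overlap and a change of 0.70 ± 0.14 SE (adjusted p = 0.00356).

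The further lysosomal and phagocytic rises were Anxa2 (0.71), the lysosomal lipase Lipa (0.57), the tetraspanin Cd151 (0.55), Gas6 (0.54), a ligand of the uptake receptors, and the lysosomal membrane gene Lamp2 (0.50). The uptake receptors themselves, Axl (0.071), Mertk (0.085) and Tyro3 (0.28), did not pass, and Mertk was below background on all 12 arrays. The counts were 11 rises and 0 falls without animal 44, 4 and 0 with the testis channel alone, 6 and 0 with the authors' ratio and 0 and 0 after median centring. The macrophage markers Cd163 (0.59, above background on 5 MAA and 2 saline arrays) and Lyz2 (0.52) did not pass, and the part of leukocytes in these rises was not tested.

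The actin and annexin list held 8 rises and 0 falls among 36 members (22.2%, against 2.25% of all probes called higher). Its median of 0.18 was -0.012 after median centring. S100a10 and its partner Anxa2 (0.71) both rose, as did Tuba1a and Anxa5. Arpc1b, a subunit of the actin-branching Arp2/3 complex, had -2.32, -2.09 and -1.78 in MAA testes, against -2.94, -2.90 and -2.67 in saline testes. The groups did not overlap, with a change of 0.77 ± 0.12 SE (adjusted p = 0.000383). In the testis channel alone 6 of the 36 rose and 0 fell, and after median centring 1 rose and 0 fell. The last 3 rises were Cotl1 (0.62), Arpc5 (0.46) and the membrane-actin linker Msn (0.45), while Vim (0.065), the intermediate filament of Sertoli cells, did not pass.

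Ribosomal protein genes held 8 rises and 0 falls among 45 members (17.8%, against 2.25% of all probes called higher). Their median was 0.24, but this direction did not hold under every scaling. The median was -0.067 after median centring and -0.051 for the testis channel alone, with 0 called in either. Many of these probes were saturated, 23 of 45 on at least 1 of the 12 arrays and 10 on all of them. With saturated spots set to missing, 28 members kept a value, of which 2 rose, with a median of 0.13. For Rpl9 (0.73 ± 0.19 SE, adjusted p = 0.0275) the reference channel was saturated on 6 MAA and 6 saline arrays. For Rps21 (0.62 ± 0.15 SE, adjusted p = 0.0116) it was saturated on 6 MAA and 3 saline arrays, and for Rpl31 (0.60 ± 0.15 SE, adjusted p = 0.0176) on 6 and 2. Over all probes, 48 to 130 spots per array were saturated in the reference channel of MAA arrays, against 32 to 50 on saline arrays. Rpl10, never saturated, changed by 0.48 ± 0.11 SE (adjusted p = 0.0128) and by 0.081 for the testis channel alone. Ribosomal protein genes have many near-identical copies, as do ferritin, tubulin and histone genes, and a probe may not tell copies apart.

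Glycolysis genes had a median of 0.21 that was -0.069 after median centring. Of the 27 members 3 rose and 1 fell, 14.8% against 2.99% of all probes and 8.62% in the fit on probes above background. The rises were the isomerase Tpi1 (0.51 ± 0.10 SE, adjusted p = 0.00384), the lactate dehydrogenase Ldhb (0.46 ± 0.11 SE, adjusted p = 0.0138) and the monocarboxylate carrier Slc16a7 (0.51 ± 0.12 SE, adjusted p = 0.0168), and each of these 3 passed under 1 of the 5 other scalings, Aquantile. Pfkp, a phosphofructokinase, fell by 0.45 (adjusted p = 0.0409). The respiratory chain list had a median of 0.081 that was below 0 under 4 of the 5 other scalings. Of its 44 members 2 rose and 1 fell, 6.82% against the same 2.99% and 8.62%. These were the electron carrier Cycs (0.64 ± 0.12 SE, adjusted p = 0.00136), the succinate dehydrogenase subunit Sdhb (0.46, which was -0.083 with the testis channel alone) and the ATP synthase subunit Atp5f1c (-0.48), whose named probe did not pass without animal 44 (adjusted p = 0.0543). A second Atp5f1c probe fell with all arrays (-0.42, adjusted p = 0.0325).

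Fatty acid genes held 1 rise and 1 fall among 35, 5.71% of the list against 2.99% of all probes. In the fit on the 11479 probes above background, 8.62% passed. Acsl4, which activates long-chain fatty acids, changed by 0.59 ± 0.15 SE (adjusted p = 0.0206, with a second probe at 0.21 that did not pass), and Cpt2, which imports them into mitochondria, by -0.44 ± 0.10 SE (adjusted p = 0.0141). Of 20 cholesterol synthesis genes 2 rose and 0 fell, Fdps (0.46) and Msmo1 (0.38), and Fdps passed under none of the other scalings. These 2 rises were 10% of the list, against 2.25% of all probes called higher. The list medians of 0.08 for fatty acid and 0.11 for cholesterol genes were below 0 after median centring.

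By the brightest probe of each gene, stress pathways other than the antioxidant one held 1 call in a direction at most. This was between 2.22% and 7.69% of a list in either direction, against 2.99% of all probes. In the fit on the 11479 probes above background on at least 3 arrays of each group, 8.62% passed. Of 26 p53 and DNA damage genes 1 rose (Ccng1, a cyclin-like p53 target, 0.44) and 1 fell (Tigar, a p53-regulated fructose bisphosphatase, -0.61 ± 0.13 SE, adjusted p = 0.00537). A single rise and 0 falls stood among 30 heat shock genes (Dnaja4, 0.54, passing under none of the other scalings), among 25 unfolded protein response genes (Phgdh, a serine synthesis enzyme, 0.45), among 45 apoptosis regulators (Cycs) and among 30 immediate-early genes (Nr4a1), where 4 rose without animal 44. The heat shock gene Hspa4l had a dimmer probe that fell (-0.51, adjusted p = 0.0403), while the brighter one that stands for it in the list gave 0.32 (adjusted p = 0.340). In the testis channel by itself 0 heat shock genes rose and 2 fell. List medians were 0.10 for p53 genes and 0.15 for immediate-early genes, above 0 under all scalings, and 0.034 for heat shock and 0.0065 for unfolded protein response genes, below 0 under the 5 other scalings. They were 0.062 for apoptosis and 0.011 for inflammation genes, below 0 under 1 and 4 of the 5. Of 32 inflammation genes 0 rose and 1 fell, Cklf.

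Cell junction genes held 2 rises and 0 falls among 25, the junction molecule F11r (0.70 ± 0.14 SE, adjusted p = 0.00297) and the actin-binding Cttn (0.50 ± 0.091 SE, adjusted p = 0.00185). The 2 rises were 8% of the list, against 2.25% of all probes called higher. The junction list median of 0.031 was below 0 under 3 of the 5 other scalings. Among 42 proteasome and ubiquitin genes 3 rose and 0 fell, Ube2n (0.49), Psma5 (0.39) and Ube2k (0.36). These were 7.14% of the list, against 2.25% of all probes called higher. In the fit on the 11479 probes above background, 8.62% passed in either direction and 756 were called higher. Psma5 passed under 1 of the 5 other scalings, Ube2n under 3, and the other 2 Ube2n probes gave 0.30 and -0.010 and did not pass. With the authors' ratio 1 of the list rose and 2 fell. The list median of 0.091 was below 0 under the 5 other scalings, where Ube2k was -0.055 after median centring. Of 39 matrix genes 1 rose, the protease inhibitor Timp2 (0.52 ± 0.12 SE, adjusted p = 0.011, passing under none of the other scalings), and 0 fell, with a median of 0.11 that was below 0 after median centring. This 1 rise was 2.56% of the matrix list.

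Of 35 histone and chromatin genes 1 rose and 2 fell, 8.57% of the list against 2.99% of all probes. The list median of 0.073 was below 0 under 4 of the 5 other scalings. The rise was the nucleosome-binding protein gene Hmgn1 (0.46 ± 0.11 SE, adjusted p = 0.0117). Beside Mllt10, the fall was H2ax, the histone variant phosphorylated at DNA breaks and on the sex chromosomes of spermatocytes. H2ax had -0.36, 0.19 and 0.39 in MAA testes, against 0.44, 0.79 and 0.90 in saline testes, with no overlap and a change of -0.59 ± 0.15 SE (adjusted p = 0.0205). Among 24 clock and glucocorticoid genes and 32 calcium genes 0 passed, with smallest p-values for Errfi1 (0.35, adjusted p = 0.208) and Calm2 (-0.35, adjusted p = 0.0922). Their medians were 0.09 and 0.016, below 0 under 0 and 3 of the 5 other scalings.

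Of the 69 named genes called, 18 passed under all 5 other scalings and 12 under none, which were Smc1b, Cabyr, Cst8, Dnaja4, Ccng1, Fdps, Sdhb, Rps21, Rpl10, Rpl9, Ube2k and Timp2. Of the 69, 40 passed in all 12 fits that left out 1 array of 24 h. Fewer than 6 of these fits called Smc1b, Cdc20, Cabyr, Hsd11b1, Cst8, Ccng1, Msmo1, Pfkp, Atp5f1c and Ube2k. These 10 had an adjusted p between 0.033 and 0.0497 with all arrays.

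Within the 2 hybridisation dates that held both groups, 0 probes passed with 2 animals against 2 (limma, 1477 and 1683 at an unadjusted p under 0.05). The 461 rises had median changes of 0.57 and 0.54 on these dates and the 151 falls -0.63 and -0.59, all with the same sign as reported. The same 8 arrays are part of the fit that called these probes, so the shared sign is no separate test. Over all probes, the changes on the 2 dates had a correlation of 0.22. Within the 2 dates St3gal4 changed by 1.58 and 1.19 and Gmcl1 by -2.12 and -1.41. The fit used the other 35 arrays for the dates and the spread, and with the 12 arrays of 24 h alone 16 probes passed with the date term and 117 without it.

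The 24 h effect was also set against that of 12 h, which has its own 6 MAA and 6 saline rats. At 12 h 520 probes passed (2.54%). Of the 461 rises of 24 h, 444 had the same sign at 12 h, with a median change there of 0.39, and of the 151 falls 147 did, with a median of -0.50. Called at both times with the same sign were 218 probes, 35.6% of the calls of 24 h and 41.9% of those of 12 h, and 0 were called with opposite signs. The difference between the effects, 24 h minus 12 h, passed for 0 probes with limma (smallest adjusted p = 0.606, 1314 probes at an unadjusted p under 0.05), with a median SE of 0.25 for a difference. Star changed by 1.08 at 24 h and by -0.025 at 12 h, a difference of 1.11 ± 0.34 SE that did not pass (adjusted p = 0.606).

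**Figure D5:**
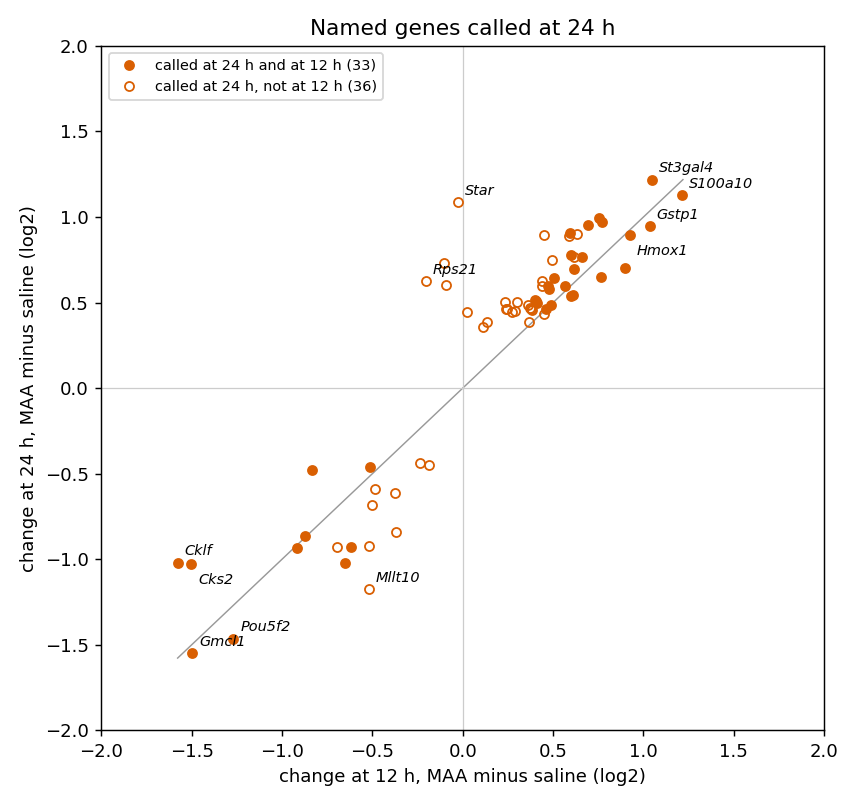
Each point is 1 of the 69 named genes called at 24 h, with its change at 24 h on the vertical and at 12 h on the horizontal axis (log2, MAA minus saline), and the line marks equal changes. Filled points (33) were also called at 12 h and open points (36) were not, and 65 of 69 have the same sign at both times, with Star among the 4 that do not.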

How the data were processed

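RNA from 47 rat testes was hybridised on two-colour arrays with a reference RNA. Each deposited array file holds 22573 spots. Its raw columns are spot intensities with no background column, its processed columns are the authors' normalized intensities, and its ratio column is a log2 ratio normalized by the authors, per the file headers and the values. Flag columns are deposited too, and the background flag is a limit on the Cy3 column on 47 of 47 arrays and on Cy5 on 0. How they were scanned and normalized is not given in the sources used here. Spots with no processed value (2073) were left out, so 20500 probes were tested. The deposited series table of log2 ratios was not used, since 39 of its 47 columns equal the ratio of another array and 7 their own, within 1e-06. The MAA_12h array of animal 27 holds the Cy5 column of the MAA_8h array of animal 15, and was kept.

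M = log2(Cy3/Cy5) of the raw intensities, not background-corrected, was loess-normalized array by array. Its correlation with the deposited log2 ratio over probes was 0.984 or more. A linear model (limma 3.58.1, lmFit then eBayes, under R 4.3.3) was fitted on all 47 arrays with 8 groups and 12 hybridisation dates as fixed terms (28 residual and 6.75 prior degrees of freedom). A call means a two-sided p under 0.05 after Benjamini-Hochberg adjustment across the 20500 probes, and all p-values are from limma. The fit was tested on data simulated from the same model, which cannot show the effect of the scaling or of an animal that responded less.

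Symbols came from the platform annotation and RefSeq, giving 12736 probes 1 symbol (9637 genes), 5 several and 7759 none. The 33 gene lists use 1 probe per gene, the brightest in the testis channel over 47 arrays, and were not tested as sets. Named are the 12 largest rises and 12 largest falls among called genes, each gene by its probe with the smallest p. For each list up to 4 called members with the smallest adjusted p are named too, or the member with the smallest p where none was called, and other members are given as examples. The comparison, the lists and this rule were chosen with earlier results of these data known. Alternatives covered the scaling, dim and saturated spots, the date term, the arrays in the fit and each array of 24 h left out. A bound sets the brighter group's mean against the background level, per channel after loess and Aquantile.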

Additional observations from a re-analysis of the deposited data

Results flagged for a closer look

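Each gene named was examined for a single animal far from the other 5 of its group, by Dixon's gap ratio at its 95% level. This held in 19 of 148 groups, where chance gives about 1 in 20. In 11 of them the animal was MAA animal 44, whose M lay on the saline side of the other 5 MAA testes in each case. For the lysosomal genes its values were Cd63 (-1.49, others -0.88 to -0.52), Ctsl (-1.75, others -0.98 to -0.74) and Lgals3 (-1.20, others -0.44 to -0.33). For markers of somatic cells they were Cst9l (1.10, others 1.80 to 1.92), Aard (1.57, others 2.26 to 2.56) and Myl9 (-1.47, others -1.10 to -0.91). The rest were Gstp1 (-2.04, others -1.40 to -1.02), Cycs (-2.46, others -2.12 to -1.93), Timp2 (-0.44, others 0.012 to 0.18), Traf2 (0.80, others -0.51 to -0.025) and Spaca3 (0.88, others 1.25 to 1.37). Other MAA testes stood apart for 3 genes. Animal 39 lay apart in Acsl4 (-1.19, others -0.59 to -0.44) and in Rps21 (-0.27, others -1.01 to -0.74), and animal 48 in Msmo1 (-0.71, others -1.05 to -0.93). Among saline testes, animal 38 lay apart in St3gal4 (-0.74, others -0.42 to -0.24) and in Rpl9 (-2.57, others -2.14 to -1.89), animal 37 in Gstp1 (-2.73, others -2.46 to -2.38) and in Bbs1 (1.21, others 0.70 to 0.85), and animal 41 in Ube2t (1.44, others 1.02 to 1.18).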

How the results depend on the processing

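The count of 612 called probes moved by more than 1.5 times under 10 settings, counting 2 left-out arrays. It was 193 after median centring, 304 with the testis channel alone, 378 with the authors' ratio, 354 with their processed channels, and 990 of 11479 when probes had to be above background on 3 arrays of each group. It was 117 with the 12 arrays of 24 h and no date term, and 16 with the date term, as with the 8 arrays of the 2 shared dates, which give the same estimate. Leaving out 1 array of 24 h gave 305 to 766 calls. The lowest counts were 305 without MAA animal 40 and 402 without saline animal 45, and the highest was without MAA animal 44. It stayed within 1.5 times with Aquantile (783), saturated spots missing (582), no date term (574), the date as a random block (636), an intensity trend (687) and without the MAA_12h array of animal 27 (585) or the MAA_4h array of animal 3 (777). The difference between 24 and 12 h passed for 0 probes in every fit that could give it. Of the 69 named genes called, Ube2k turned to -0.055 after median centring and Sdhb to -0.083 with the testis channel alone. Under these scalings 49 and 36 of the 69 did not pass. No paired analysis was possible because animal numbers do not recur between groups. Dim spots limit falls, since 11 called probes were below background on all MAA arrays, 7 on all saline arrays and 4 on both.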

Other observations

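Of the 433 genes called, 356 were in none of the gene lists. The following were picked from them after their values were seen, with limma's adjusted p. Among genes lower in MAA testes were Kdm5b, a histone H3 demethylase (-0.63 ± 0.14 SE, adjusted p = 0.00693), Supt16h, a subunit of the histone chaperone FACT (-0.72 ± 0.16 SE, adjusted p = 0.0077), and Stmn1, a microtubule destabiliser (-0.48 ± 0.13 SE, adjusted p = 0.0301). Also lower were Ercc1, part of an excision repair nuclease (-0.75 ± 0.17 SE, adjusted p = 0.0114), and Rad50, part of the complex that processes DNA double-strand breaks (-0.66 ± 0.17 SE, adjusted p = 0.0255). Supt16h, Ercc1 and Rad50 were above background on 3, 3 and 2 MAA arrays, against 5, 6 and 5 saline arrays. All 5 were also below 0 with the testis channel alone and after median centring.

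Among genes higher in MAA testes were Ptgr1, which reduces prostaglandins and lipid aldehydes (0.84 ± 0.14 SE, adjusted p = 0.000831), Tkt, a transketolase of the pentose phosphate pathway (0.79 ± 0.19 SE, adjusted p = 0.014), Aldh2, the mitochondrial aldehyde dehydrogenase (0.63 ± 0.15 SE, adjusted p = 0.0124), and Slc7a11, the cystine carrier (0.63 ± 0.17 SE, adjusted p = 0.0259). The cold-inducible RNA-binding protein gene Rbm3 (0.69 ± 0.16 SE, adjusted p = 0.011) and the secretory granule gene Chga (0.60 ± 0.16 SE, adjusted p = 0.0287) rose too. All 6 were above background on all 12 arrays and above 0 with the testis channel alone and after median centring. At 12 h the changes of Ptgr1, Tkt, Aldh2 and Slc7a11 were 0.54, 0.30, 0.22 and 0.0011.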
